A study of Mus musculus with 142 samples.

Results

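The clones described here lack the Z site, the A-OSN-1 site and all 3 OSN sites of element C on 1 homolog of chromosome 16, a genotype written Z.AOSN.COSN123. They were found by their column names in the deposited table of replication timing (RT), which gave 2 clones, A9 and B4. Each clone has an early and a late S-phase sample, so the genotype holds 4 of the 142 samples of the series and 8 of the 138 allele columns. Each clone has 2 columns per allele, numbered as replicates in the table, while the labels list 1 early and 1 late sample a clone. Whether these columns are repeat runs of 1 library or separate libraries is not stated. They are called runs here and were averaged, so that n = 2 clones throughout unless another n is given.

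The series measured allele-specific E/L Repli-seq in F121-9 cells, a mouse embryonic stem cell (mESC) line from a cross of musculus and castaneus (CAST) mice, grown in 2i + LIF. Cells were labelled with BrdU for 2 h and sorted by DNA content into early and late S phase, and the labelled DNA of each fraction was sequenced. RT is the log2 ratio of early over late reads in windows of 50 kb, so that a higher value is earlier replication. In all clones compared here, deletions were made with CRISPR on the musculus homolog, and the unmodified CAST homolog of the same clone served as its control (CON).

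The comparisons use 5 genotypes, and all of their deletions lie in the Dppa2/4 domain of the musculus homolog. By its deletions, Z.AOSN.COSN123 differs from AOSN.COSN123 only in the loss of Z. AOSN.COSN123 has 3 clones in the labels, of which A6 and B6 enter the comparisons, and clone F4 was not analysed here. COSN123 lacks the 3 C-OSN sites alone and is 1 clone, grown as 4 separate cultures. A.COSN123 (4 clones) lacks all of element A together with the C-OSN sites. Z.B.C (2 clones) lacks Z and the whole of elements B and C, with A intact. All Z.AOSN.COSN123, AOSN.COSN123 and A.COSN123 clones share the loss of the C-OSN sites with COSN123, and none of these 4 genotypes lacks B. The lines are clones, so a difference between genotypes includes any difference between the clones that happened to be picked. The p-values of the linear model (limma) rest on a spread between clones estimated from all 24 genotypes fitted. Permutation p-values rest on the clones compared, or for COSN123 on its 4 cultures.

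Replication timing is the order in which stretches of the genome are copied during S phase, and domains that hold active genes are usually copied early. Early replication control elements (ERCEs) are segments of DNA needed in cis for the early replication of their domain. Many sites in such elements are bound by Oct4, Sox2 and Nanog, the transcription factors that hold embryonic stem cells in the pluripotent state, and are called OSN sites. Dppa2 and Dppa4 encode partner chromatin proteins that are expressed in pluripotent cells and germ cells, and Morc1, the gene in which C lies, encodes a protein that silences transposons in male germ cells.

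All coordinates are on chromosome 16 of mm10. Z spans 48303458 to 48304031 (574 bp) and overlaps the start of Dppa2. It takes away the annotated start of the longer Dppa2 transcript at 48303908, with 124 of the 299 bases of its first exon, which is untranslated. The shorter Dppa2 transcript starts at 48310477, a distance of 6446 bases from Z, inside A but outside A-OSN-1. A-OSN-1 spans 48308688 to 48309349 (662 bp) in an intron of Dppa2. C-OSN-3 (48606321 to 48607163, 843 bp), C-OSN-2 (48608216 to 48608754, 539 bp) and C-OSN-1 (48613172 to 48614742, 1571 bp) lie in introns of Morc1. Their centres are 303 to 310 kb from the centre of Z. Z and A-OSN-1 therefore fall in the same window, 48.30 to 48.35 Mb, and the RT values cannot separate them by position.

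The guides that cut the edges of Z and of A-OSN-1 are given because they define what the deletion allele lost. Each is written 5′ to 3′ with the PAM in capitals, and the expected cut of each fell on the edge of its deletion.
Z-OSN-G1 (48303452 to 48303474, minus strand): ttactatgtagcagagacaaAGG
Z-OSN-G2 (48304026 to 48304048, minus strand): gtattgggatcaaagcgagcTGG
A-OSN-1-G1 (48308671 to 48308693, plus strand): cactgtagctgtcaccaaagAGG
A-OSN-1-G2 (48309344 to 48309366, minus strand): aaagggaacctagttgcctaAGG

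The deleted sequences were searched on both strands for the octamer ATGCAAAT bound by POU factors such as Oct4, for its first 6 letters ATGCAA, and for ACAANG, the core of the motif bound by SOX factors. ATGCAA and ATGCAAAT overlap each other, since the second holds the first. Neither was found in any of the 5 deleted sites. ATGCAA occurred in 31.8% and ATGCAAAT in 5.14% of all stretches of chromosome 16 of the length of Z. ACAANG occurred 1 time in Z, against 5 times in A-OSN-1, 3 in C-OSN-3, 1 in C-OSN-2 and 7 in C-OSN-1. Among stretches of the same length, 74.9% held it at the length of Z, 79.7% at that of A-OSN-1, 86.7% at C-OSN-3, 72.7% at C-OSN-2 and 97.6% at C-OSN-1. The single matches in the smallest sites, with ACAANG in capitals, are shown because Z and C-OSN-2 each hold a single match.
Z (48303774 to 48303795, minus strand): tattgcaaACAAAGgattgtga
C-OSN-2 (48608692 to 48608713, plus strand): gtctctttACAATGtatttatt

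The deletion allele replicated later than the control allele across the domain in both clones, and it did so around Z and Dppa2 and around C alike. Both clones were later in every window from 47.85 to 49.10 Mb, a run of 25 windows over 1.25 Mb, and in 26 of the 37 windows with a value in both clones between 47.5 and 49.5 Mb. The median difference between the deletion and the control allele (DEL minus CON) in those 25 windows was −0.51 on the log2 scale, beside −0.01 over the 42390 windows tested genome-wide. In limma, with Benjamini-Hochberg adjustment over all windows, 20 of the 25 passed an adjusted p of 0.05. The run was delimited by the sign of these same differences, so its median was negative by construction. The genome-wide windows were not chosen in that way. In the whole interval from 46.5 to 50.5 Mb, 24 windows were called later and 8 earlier of 74 with a value in both clones, while 9.4% of the windows genome-wide were called later and 6.95% earlier. Differences between the musculus and CAST homologs are part of each of these values and, within a clone, cannot be told apart from the deletion. Neighbouring windows are not independent, since the authors smoothed the values.

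**Figure D1:**
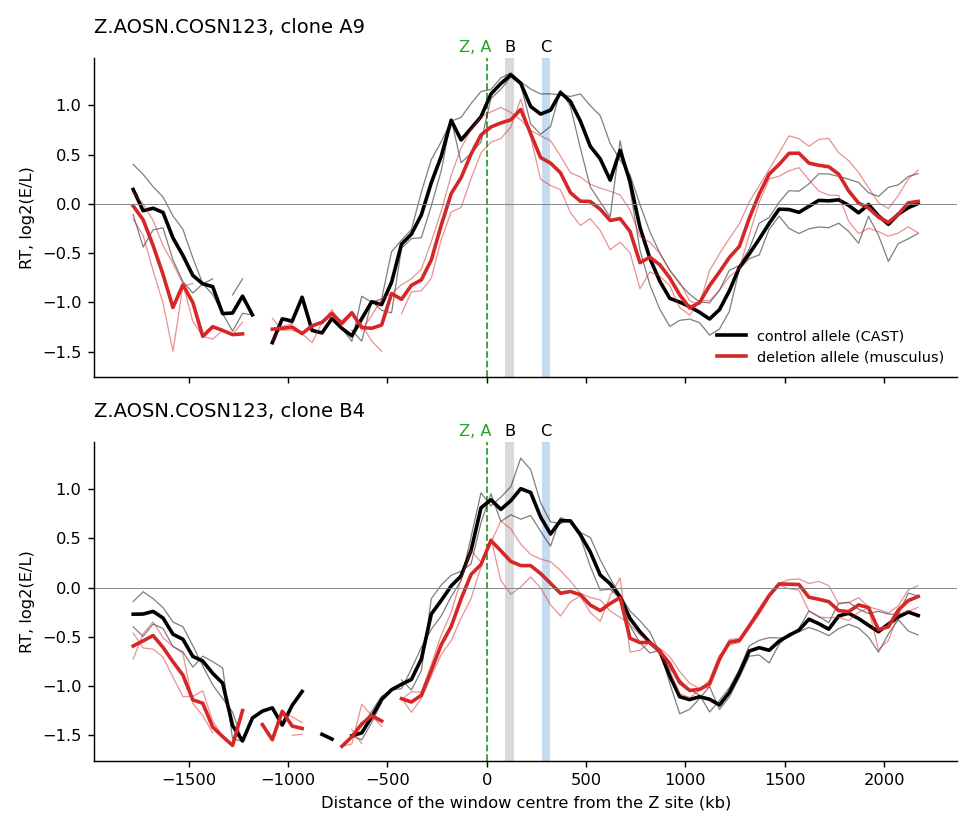
RT (log2 early over late, y axis) of the deletion and the control allele of clones A9 and B4, by distance of the window centre from the Z site in kb (x axis), with thin lines for single runs and thick lines for their mean. In both clones the deletion allele lies below the control allele from Z through C, where B4 lies below A9 on both alleles.

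Around Z and Dppa2 (the 2 windows from 48.25 to 48.35 Mb, the first of which holds the start of Dppa4) RT was still early on the deletion allele. It was 0.74 in A9 and 0.36 in B4, against 1.00 and 0.85 on their control alleles. The delay was thus −0.26 in A9 and −0.49 in B4, with a mean of −0.38 ± 0.17 (SD). The runs gave −0.24 and −0.28 for A9 and −0.54 and −0.45 for B4, so that runs of a clone lay closer to each other than the clones did. In the single window that holds Z and the start of Dppa2, DEL minus CON was −0.33 in A9 and −0.41 in B4. The limma estimate there was −0.37 (SE 0.09, 95% interval −0.56 to −0.18, adjusted p = 0.0050). The window to its left, with Dppa4, gave −0.18 in A9 and −0.58 in B4, for an estimate of −0.38 (SE 0.10, adjusted p = 0.011). These calls rested on both clones and on the spread shared with the other genotypes. The adjusted p of the Z window rose to 0.057 without A9, 0.13 without B4 and 0.064 with the spread taken from the genotypes compared alone, and without B4 the left window fell to −0.18.

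Around C (48.55 to 48.65 Mb) the deletion allele reached 0.44 in A9 and 0.09 in B4, against 0.93 and 0.63 on the control alleles. The delay was −0.49 in A9 and −0.54 in B4, or −0.51 ± 0.03. All 4 runs fell between −0.45 and −0.59. The window with the 3 C-OSN sites had an estimate of −0.52 (limma, adjusted p = 0.00020).

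The delay around Z was the smaller of the 2 in both clones, by 0.23 in A9 and by 0.04 in B4 (mean 0.14 ± 0.13). That mean was about the size of its SD, and the clones lay further apart around Z (SD 0.17) than around C (SD 0.03). They lay further apart still in the windows between B and C (SD 0.35), but not in those of B (SD 0.06). The windows of B (48.35 to 48.45 Mb), which is intact in this genotype, were delayed by −0.43 in A9 and −0.52 in B4. Those between B and C (48.45 to 48.55 Mb) gave −0.27 in A9 and −0.76 in B4. In limma, the B windows had estimates of −0.41 (adjusted p = 0.0084) and −0.54 (adjusted p = 0.0011). The first call was lost without A9 (adjusted p = 0.11), without B4 (0.12) and with first runs only (−0.27, adjusted p = 0.071), and the second without B4 (−0.46, adjusted p = 0.082).

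The lowest values lay beyond C, on the side away from Dppa2. The windows from 48.70 to 48.75 Mb (−0.82, limma adjusted p = 7.7e-06) and from 48.65 to 48.70 Mb (−0.78, adjusted p = 2.3e-05) held the most negative differences of the interval. Clone A9 reached −0.93 and −0.82 there, and B4 −0.72 and −0.74. Over 48.65 to 48.90 Mb the mean was −0.66 ± 0.09, and over 48.00 to 48.25 Mb, left of Dppa4, it was −0.48 ± 0.14. The left side is also where the homologs differed without any deletion.

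**Figure D2:**
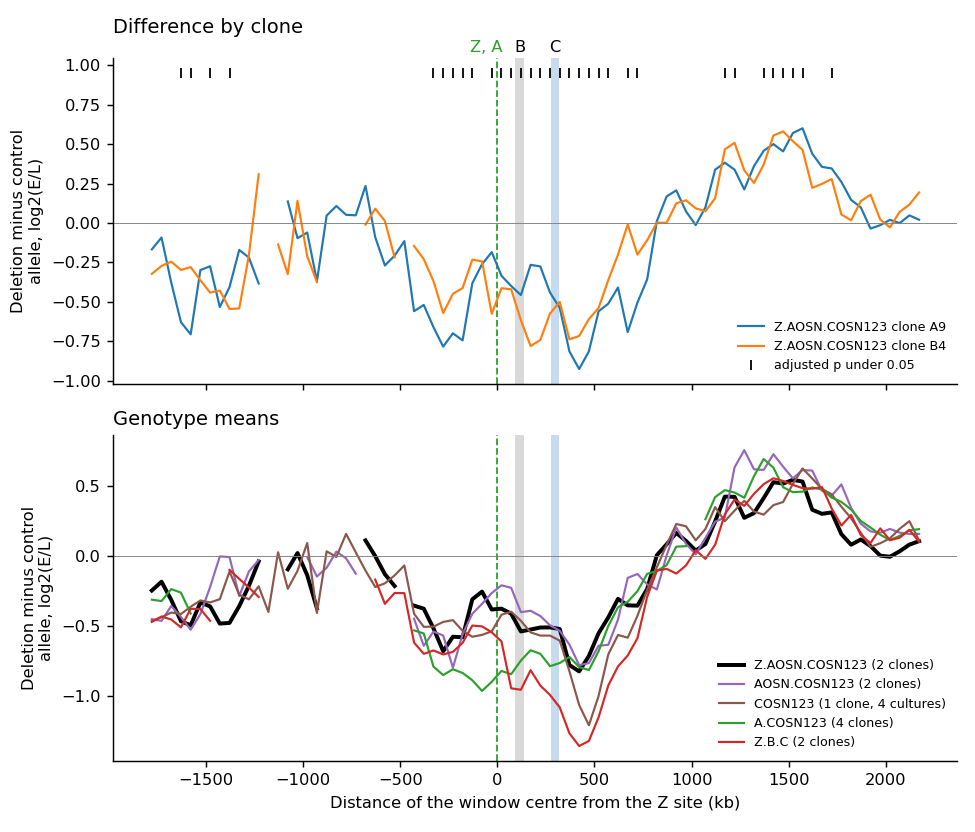
Difference in RT between deletion and control allele (log2, y axis) by distance from the Z site in kb (x axis), for clones A9 and B4 with ticks at windows past an adjusted p of 0.05 in limma (top), and as genotype means (bottom). Both clones are below 0 over 1.25 Mb, lowest beyond C, and above 0 in the neighbouring region to the right.

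In the mean of the runs, the earliest window of the central 1 Mb also differed between clones. On the deletion allele it was 48.45 to 48.50 Mb in A9 (0.96) and 48.30 to 48.35 Mb in B4 (0.48), and on the control allele 48.40 to 48.45 Mb in A9 (1.31) and 48.45 to 48.50 Mb in B4 (1.00). In that mean, the deletion allele of B4 was thus earliest in the window from which Z and A-OSN-1 had been removed. The position also moved between runs of a clone. On the deletion allele it was 48.35 to 48.40 Mb in the first run of both clones. In the second runs it was 48.45 to 48.50 Mb in A9 and 48.30 to 48.35 Mb in B4. On the control allele of B4 it was 48.45 to 48.50 Mb in the first run and 48.30 to 48.35 Mb in the second. The control allele of B4 was itself late for a CAST allele. Among the CAST control alleles of 42 clones it was the latest in the C windows (0.63, median 0.86), in the B windows (0.84, median 1.15) and from 48.00 to 48.25 Mb (0.02). In the Z and Dppa2 windows the 42 had a median of 0.97.

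Unmodified alleles of the musculus homolog, which 2 clones with their deletion on CAST provide, bear on the homolog difference. All values of these alleles come from a single column of each clone, not from a mean over its repeat columns. In the Z and Dppa2 windows they measured 0.91 and 0.98 beside the CAST median of 0.97, and in the C windows 0.84 and 0.93 beside 0.86. In both regions they were close to the CAST median, and the deletion alleles of A9 and B4 lay below both of them. On the left side, from 48.00 to 48.25 Mb, they measured 0.09 and 0.23 beside a CAST median of 0.49, and the deletion alleles 0.02 in A9 and −0.36 in B4. From 47.85 to 48.15 Mb the mean of the unmodified musculus alleles lay below the mean CAST allele by −0.58 to −0.35 per window, while DEL minus CON ran from −0.68 to −0.35. From 48.25 to 48.65 Mb, between the windows of Dppa4 and of the C-OSN sites, it differed from CAST by −0.07 to 0.09. On the right side, from 48.65 to 48.90 Mb, they measured 0.41 and 0.66 beside a CAST median of 0.66, and the deletion alleles 0.09 in A9 and −0.12 in B4. Both deletion alleles lay below both unmodified musculus alleles in 19 of the 25 windows of the block. The far left of the block can therefore not be told apart from the homolog difference. Further right, from 49.65 to 50.05 Mb, the deletion allele was earlier than its control in both clones, by 0.47 in A9 and 0.40 in B4. There the unmodified musculus alleles measured −0.13 and 0.14 and the CAST median was −0.43. The windows from 49.80 to 49.85 Mb (0.54, limma adjusted p = 0.0024) and from 49.85 to 49.90 Mb (0.53, adjusted p = 0.00027) had the highest differences of the interval.

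The interval holds the starts of 14 protein-coding genes, in 11 windows. Of these, 10 started in windows called later on the deletion allele, which were Dppa4, Dppa2, Gm5485, Morc1, Trat1, Retnlb, Retnla, Retnlg, Dzip3 and Cip2a. All 10 starts lie in the delayed block described above and some share a window, so the count restates that block. Genome-wide, 9.4% of the windows were called later and 6.95% earlier. Dppa2 and Dppa4, named above, had differences of −0.37 and −0.38 at their starts. Morc1 and Gm5485 share a window inside B, with −0.46 in A9 and −0.62 in B4. Trat1, which encodes a transmembrane adaptor of T cells, had the largest delay of the gene starts, with −0.81 in A9 and −0.61 in B4 (mean −0.71 ± 0.14). It lies beyond C, and its deletion allele stood at 0.03 in A9 and −0.07 in B4 against 0.84 and 0.54 on the control.

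Retnlb and Retnla, which encode secreted resistin-like proteins, share a window with −0.56 in A9 and −0.54 in B4. Retnlg, of the same family, had −0.51 in A9 and −0.36 in B4. The clones differed most at Dzip3, a ubiquitin ligase gene, and Cip2a, an inhibitor of the phosphatase PP2A, whose shared window gave −0.69 in A9 and −0.01 in B4. Of the other 4 genes, 2 were called earlier on the deletion allele. These were Ift57, a component of the transport machinery of cilia (0.41 ± 0.06), and Cd47, a cell surface protein that restrains phagocytosis (0.54 ± 0.04). Both lie in the right-hand region where the unmodified musculus alleles were also above the CAST median. Myh15, a myosin heavy chain gene (−0.23, limma adjusted p = 0.087), and Bbx, an HMG-box gene (0.08, adjusted p = 0.58), were not called. RT here is not expression, and expression was not analysed.

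The loss of Z can be read from the pair of genotypes that differ by it. Z.AOSN.COSN123 and AOSN.COSN123 were not separated at any window, at Z or at C. Around Z and Dppa2, AOSN.COSN123 gave −0.12 in clone A6 and −0.35 in clone B6 (mean −0.24 ± 0.16), against −0.26 and −0.49 in Z.AOSN.COSN123. Clone B6 thus lay between A9 and B4, and the groups overlapped. The difference of the means was −0.14 (exact two-sided permutation test over clones, p = 0.667, adjusted p = 0.821 over 16 tests, where 2 clones against 2 cannot go below 0.333). In the window of Z itself the clones of AOSN.COSN123 had −0.13 and −0.29, and the limma contrast was −0.17 (95% interval −0.43 to 0.10, adjusted p = 0.82). The interval leaves room for an added delay of up to 0.43 by the loss of Z and for none. In the window with Dppa4 the contrast was −0.12 (−0.42 to 0.18, adjusted p = 0.90).

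Around C the pair gave −0.51 in both groups, with −0.46 and −0.57 in the clones of AOSN.COSN123, and the difference was −0.0011 (exact permutation test, p = 1). All 25 windows of the delayed block had a 95% interval that held 0. The contrast was negative in 14 of them and positive in 11, with a median of −0.02, the same as the −0.02 over all windows tested. No window was called in limma among the 71 tested in the interval, with 5 at an unadjusted p below 0.05. Genome-wide, 0 of 40714 windows (0%) were called, with 3175 at an unadjusted p below 0.05. The area between the curves, summed over 47.5 to 49.5 Mb in units of log2 ratio times windows, was −12.4 in A9 and −10.2 in B4 (mean −11.3 ± 1.53), against −9.42 and −16.4 in AOSN.COSN123 (mean −12.9 ± 4.92). The areas overlapped and differed by 1.58 (exact permutation test, p = 1).

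**Figure D3:**
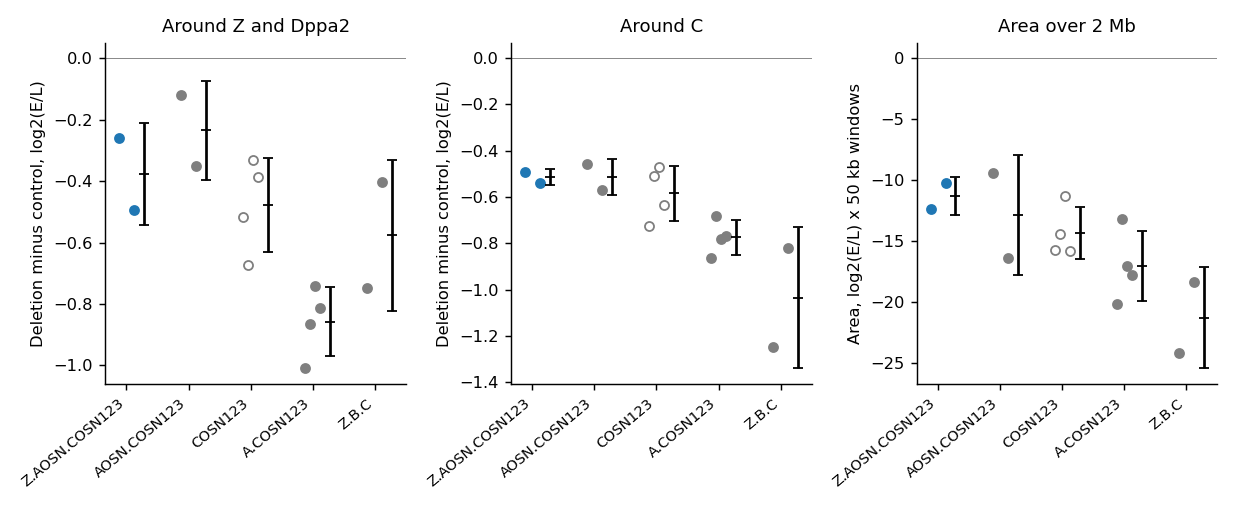
DEL minus CON (log2) around Z and Dppa2 and around C, and the area between the curves, for each clone of the 5 genotypes, with bars at mean ± SD and open circles for the 4 cultures of the single COSN123 clone. Z.AOSN.COSN123 overlaps AOSN.COSN123 and COSN123 in all 3 measures and lies above all A.COSN123 clones.

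The 4 cultures of COSN123 addressed what the loss of Z and A-OSN-1 together adds to the loss of the C-OSN sites. Around Z and Dppa2 the cultures ran from −0.67 to −0.33 (mean −0.48 ± 0.15, n = 4), so that the 2 clones that also lack Z and A-OSN-1 were on average less delayed there by 0.10 (exact permutation test over 2 clones and 4 cultures, p = 0.533, adjusted p = 0.821). Around C the cultures ran from −0.73 to −0.47, and the difference was 0.07 (exact permutation test, p = 0.667). The area was −14.3 ± 2.1 in the cultures, 3.0 below that of Z.AOSN.COSN123 (exact permutation test, p = 0.267, adjusted p = 0.667). Both groups overlapped in each measure. In limma, where COSN123 counted as 1 clone, the Z window differed by 0.04 (95% interval −0.28 to 0.37). None of the 74 windows of the interval was called, with 2 below an unadjusted p of 0.05, and 0.00708% (3 of 42360) were called genome-wide. Because COSN123 is a single clone, its cultures do not show how far clones of that genotype vary.

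The A.COSN123 clones did not overlap Z.AOSN.COSN123 around Z and Dppa2, though no test of that region passed. Loss of the whole A element (48308248 to 48311866) went with −1.01, −0.86, −0.74 and −0.81 around Z and Dppa2 in clones B7, C9, D8 and H10, a mean of −0.86 ± 0.11 (n = 4). All 4 were later than A9 and B4, by 0.48 in the means. Around C the A.COSN123 clones ran from −0.86 to −0.68, also all later, by 0.26. The area was −17.0 ± 2.88, larger in size by 5.72. The exact permutation p was 0.133 for each of these, the smallest that 2 against 4 units allow, with an adjusted p of 0.533 over the 16 tests.

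In that comparison 2 windows left of Dppa4 passed in limma. In the window from 48.20 to 48.25 Mb the A.COSN123 clones had −1.0, −1.01, −0.88 and −0.95, against −0.26 in A9 and −0.24 in B4, for a contrast of 0.71 (95% interval 0.48 to 0.94, adjusted p = 0.015). In the window from 48.15 to 48.20 Mb they ran from −0.95 to −0.85, against −0.38 and −0.23, for a contrast of 0.58 (0.38 to 0.78, adjusted p = 0.020). The groups did not overlap in either window, but both windows were picked because this contrast called them. These were 2 of the 59 windows tested in the interval, beside 0.023% (8 of 34737) genome-wide, and 20 of the 25 windows of the block had a positive contrast. The windows of Z (0.44, adjusted p = 0.17) and Dppa4 (0.52, adjusted p = 0.16) were not called. Both calls were lost without clone B4, and with the spread taken from the genotypes compared alone. With the mean CAST allele as control, the limma contrast fell to 0.38 from 48.20 to 48.25 Mb (adjusted p = 0.062). From 48.15 to 48.20 Mb it fell to 0.31 (adjusted p = 0.11).

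**Figure D4:**
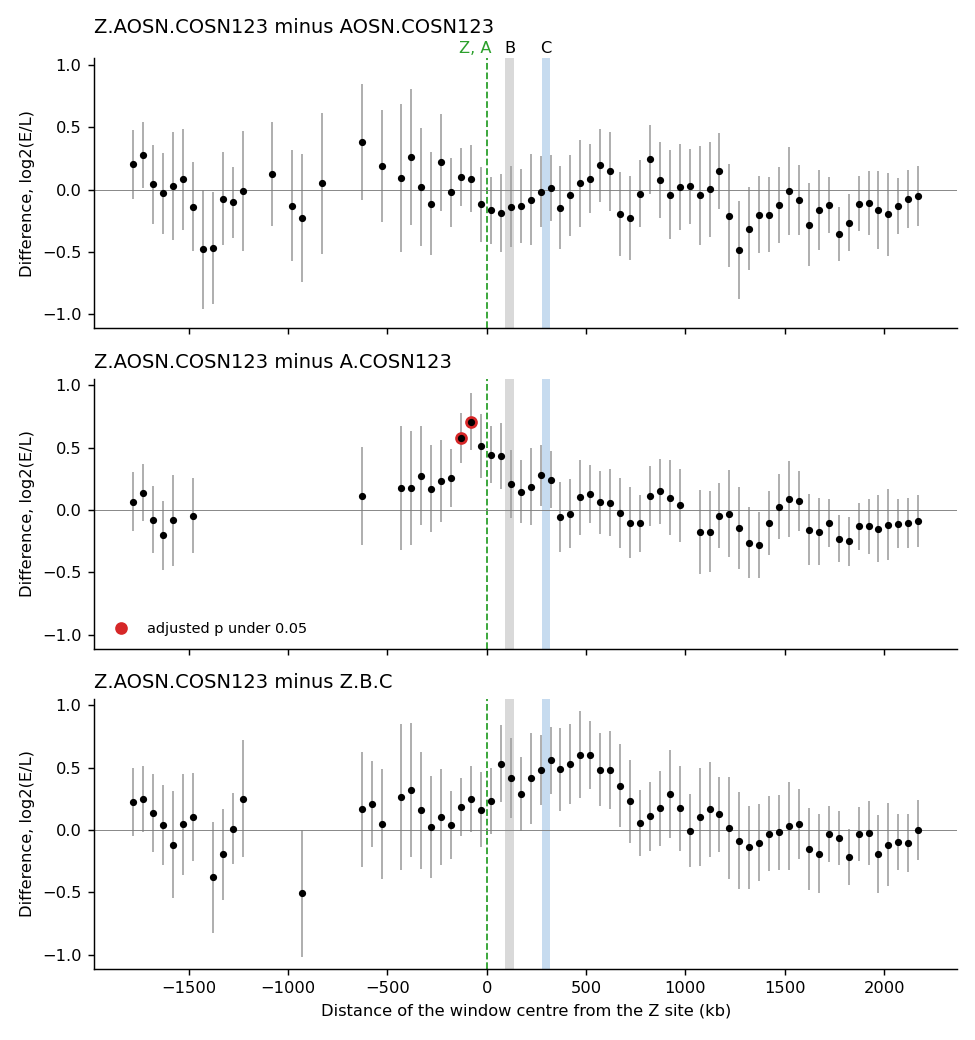
Contrast of DEL minus CON between Z.AOSN.COSN123 and AOSN.COSN123, A.COSN123 or Z.B.C (log2, y axis, 1 panel each) by distance from the Z site in kb, with 95% limma intervals and windows past an adjusted p of 0.05 in red. The first panel has intervals around 0 throughout the block, and the 2 red windows of the A.COSN123 panel lie left of Dppa4.

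Z.B.C, the other genotype without Z, was later than Z.AOSN.COSN123 around C in both clones and overlapped it around Z. Its clones A6 and E5 had −0.75 and −0.40 around Z and Dppa2 (mean −0.58 ± 0.25), and clone E5 lay between A9 and B4. Around C they had −1.25 and −0.82 (mean −1.03 ± 0.30), both later than A9 and B4, for a difference of 0.52 (exact permutation test, p = 0.333, the smallest possible, adjusted p = 0.667). The deletion allele of Z.B.C lacks the whole of C (39018 bp) within these windows, so its values there rest on the remaining sequence. Z.AOSN.COSN123 lost only the C-OSN sites there. The difference between the regions, Z and Dppa2 minus C, was 0.50 and 0.42 in Z.B.C against 0.23 and 0.04 in Z.AOSN.COSN123, without overlap (exact permutation test, p = 0.333). The area was −24.2 and −18.4, both beyond those of A9 and B4. In limma the contrast in the C-OSN window was 0.56 (95% interval 0.29 to 0.83, adjusted p = 0.10). None of 68 windows in the interval was called, with 13 below an unadjusted p of 0.05, although all 25 windows of the block had a positive contrast and 12 of the 95% intervals lay above 0. The share called genome-wide was 0.0794% (28 of 35274).

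Outside the 4 Mb interval, the 2 clones were set against the mean of the 23 other genotypes. There, 8 of 27003 windows (0.0296%) were called in limma, and 6 of them shared the smallest adjusted p of 0.033. The 3 of these with the smallest unadjusted p overlapped no protein-coding gene. Chromosome 19 from 42.65 to 42.70 Mb had DEL minus CON of −0.06 in A9 and 0.19 in B4, against a median of −0.42 in 41 other clones. Chromosome 18 from 7.70 to 7.75 Mb had −0.31 and −0.84 against a median of 0.03. Chromosome 6 from 52.35 to 52.40 Mb had 0.33 and 0.25 against −0.23. In these 3 windows both clones lay outside the range of the others, as they did in 5 of the 6. The exception was chromosome 2 from 65450001 to 65500000, where B4 had −0.54 and A9 had 0.06, inside the range of −0.12 to 0.85. All 6 were picked for their difference from the other clones in this contrast, so these positions are no separate support for the calls. The calls on chromosomes 19, 18 and 6 were lost without B4 (adjusted p = 0.61, 0.88 and 0.21) and with every culture as a unit (0.090 each), and the chromosome 18 value fell to −0.36 without B4.

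Across the genome, columns of the same allele correlated across windows at 0.928 to 0.964, and runs of the same clone at 0.955 to 0.960. The highest values were between clones, for the first runs of A9 and B4 (0.964 on the deletion allele, 0.963 on the control allele). Other pairs between clones ran from 0.928 to 0.951. Outside the interval, the SD of DEL minus CON over windows was 0.30 in A9 and 0.28 in B4. Of 12 loci of genes active in embryonic stem cells, such as Pou5f1, Sox2 and Nanog, 11 were above 0 on every allele (range −0.0001 to 1.49, median 0.96). Of 8 loci of genes silent in these cells, chosen as likely to be late, 6 were above 0 on every allele and only Cd34 was below 0 on all of them (range −0.56 to 1.29, median 0.45), so these loci did not serve as late controls. The files give ratios and no counts, so the depth of each library is unknown.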

How the data were processed

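The authors trimmed reads with TrimGalore, aligned them with bowtie2 to mm10 masked at the SNPs of the musculus (strain 129SvImJ) and CAST homologs, and assigned each read to a homolog with SNPsplit. Samtools was used to drop duplicates, and bedtools to count what was left in 50 kb windows. Versions of these tools are not given in the sources used here. The deposited values are log2 ratios of early over late reads per allele, after scaling, quantile normalization and loess smoothing by the authors, over 49264 windows of 19 autosomes. Smoothing spreads a change into neighbouring windows, and quantile normalization removes shifts of a whole library. Depth is unknown.

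Repeat runs and cultures of a clone were averaged, except for the unmodified musculus alleles, for which a single column of each clone was used. In each window the control allele was subtracted from the deletion allele of its clone. The differences of 43 clones of 24 genotypes (106 columns), each with a deletion on the musculus homolog and a CAST control, were fitted in limma 3.58.1 (R 4.3.3; lmFit, eBayes), with Benjamini-Hochberg adjustment over all windows tested and a threshold of 0.05. Windows needed a value in every clone compared. Genotypes were compared as contrasts, in which the homolog difference cancels. Regional means and areas were compared by exact two-sided permutation tests over clones (scipy 1.17.1), adjusted over 16 tests, of which none passed. The fit was tested on simulated data drawn independently for each window. Such data lack the correlation that smoothing gives to neighbouring windows. The test of areas against random regions in the study's methods was not repeated. Libraries in the labels without a column of values (5 of 71) were not analysed here.

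The genotypes, windows, gene lists and tests were chosen with earlier results of these data known. Windows were named if they overlapped a deleted site, B or the left neighbour of Z, or had 1 of the 2 lowest or 2 highest differences in the interval. Genes were named if protein-coding with a start in the interval (GENCODE on mm10). Elsewhere 3 windows with the smallest adjusted p were named, with ties (6 windows) ordered by unadjusted p. Alternatives were other runs, scaling, missing values, spread estimates, window sets and each clone left out.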

Additional observations from a re-analysis of the deposited data

Results flagged for a closer look

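Named windows differed between genotypes in limma, with adjustment over all windows. Against A.COSN123, the delay of the deletion allele was smaller in Z.AOSN.COSN123 by 0.58 from 48.15 to 48.20 Mb and by 0.71 from 48.20 to 48.25 Mb of chromosome 16, just left of Dppa4. With the mean CAST allele as control these differences became 0.31 and 0.38, and neither was called. Both calls were also lost without clone B4.

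Outside the domain, the difference between alleles in A9 and B4 departed from the mean of the other genotypes by 0.47 on chromosome 19 from 42.65 to 42.70 Mb, by −0.63 on chromosome 18 from 7.70 to 7.75 Mb and by 0.55 on chromosome 6 from 52.35 to 52.40 Mb. These 3 calls were lost without clone B4 and with every culture as a unit, and the chromosome 18 value fell to −0.36 without B4. None of these windows overlaps a protein-coding gene, and whether they follow from the deletions, from a change carried by the clones or from the 2 runs they were measured in was not tested.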

How the results depend on the processing

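No paired analysis was possible because the labels give the clones of the compared genotypes no shared replicate numbers. With 2 clones, calls depended on both. Windows called later in the interval (24) fell to 15 with the spread of the genotypes compared alone, to 13 with alleles as separate groups, and to 11 to 13 with 1 clone left out. Those called earlier (8) became 24 against the mean CAST allele, 1 with separate alleles and 3 to 4 without 1 clone. Genome-wide calls (6929) became 11354, 3472 and 2964 under the mean CAST allele, the genotypes compared alone and separate alleles, and 3252 to 3781 without 1 clone.

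Windows called against AOSN.COSN123 in the interval (0) became 1 with second runs only. Genome-wide (0) they became 254 with second runs, 2802 against the mean CAST allele, 11 with missing windows interpolated, 3 with windows measured in at least 1 clone and 0 to 12 without 1 clone. Against COSN123 the genome-wide count (3) became 1 with second runs, the mean CAST allele, single cultures or the genotypes compared alone, 20 with interpolation, 7 with windows in at least 1 clone and 10 to 12 without 1 clone.

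Against A.COSN123 the 2 windows of the interval became 0 with the mean CAST allele, single cultures, the genotypes compared alone or separate alleles, and 0 to 2 without 1 clone, with 0 without B4 and 1 without C9 or H10. Its genome-wide count (8) became 5 with first runs, 697 with second runs, 2038 with the mean CAST allele, 40 with interpolation, 1 with single cultures or separate alleles, 3 with the genotypes compared alone and 4 to 73 without 1 clone. Against Z.B.C the interval count (0) became 4 with second runs, 1 with the mean CAST allele and 0 to 1 without 1 clone (1 without E5). Its genome-wide count (28) became 0 with first runs or the genotypes compared alone, 556 with second runs, 604 with the mean CAST allele, 1 with single cultures, 2 with separate alleles and 5 to 66 without 1 clone. Outside the interval the count against all other genotypes (8) became 2 with first runs, 1593 with second runs, 3055 with the mean CAST allele, 38 with interpolation, 0 with single cultures or separate alleles and 1 to 76 without 1 clone.

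The delay around C was −0.47 with first runs, −0.56 with second runs, −0.62 against the mean CAST allele and −0.58 over 4 windows, and the area over the central 1 Mb was −9.59. Small differences between genotypes changed sign. Against AOSN.COSN123, that around C (−0.0011) became 0.043 with first runs, 0.015 after centring, 0.055 without clone A6 and 0.023 without B4 (lowest −0.057, without B6), that of the area (1.58) became −0.30 over the central 1 Mb and −1.90 without B6 (highest 5.06, without A6), and the contrast in the Dppa4 window (−0.12) became 0.03 without A6 and 0.078 without B4 (lowest −0.31, without A9). Against COSN123, Z minus C (0.03) became −0.029 with first runs and −0.065 without A9 (0.12 without B4), and that around Z (0.10) became −0.018 without A9 (0.22 without B4). The cause of these changes was not tested.

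The direction of the delay around Z and around C in Z.AOSN.COSN123 was the same under every alternative. Differences between genotypes below about the SD between clones cannot be resolved with 2 clones each.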
